A study of Mus musculus with 4 samples.

Results

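Integrins, selectins and the other adhesion molecules of leukocytes were examined in mouse leukemic cells carrying MLL-AF9, with and without a knockout of Ezh2. The genes were chosen by name. They are all genes whose symbol begins with Itga, the integrin beta chains Itgb1 to Itgb8, the Icam genes, the selectins Sele and Selp, and Vcam1, Pecam1, Cd44, Selplg, Esam, F11r, Jam2, Jam3 and Alcam. A probe set is a group of short probes for 1 transcript on an Affymetrix array, and a gene can have several. The rule found 39 of the 18193 genes named on the array, with 86 of its 45101 probe sets, each with a single gene symbol in the platform annotation. Of these, 65 probe sets of 33 genes had a mean intensity over the 4 arrays above 21.93, a floor that 30% of probe sets other than controls fell under, and were tested. The other 21 probe sets were below it, and for Itga7, Itga8, Itgb4, Itgb6, Itgb8 and Icam5 that was every probe set.

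All 4 samples were leukemic cells that MLL-AF9, a fusion oncogene, had transformed, purified out of marrow from recipients of the C57BL/6 strain. The tested cells are labelled Ezh2 KO (2 arrays), and the cells they are set against are labelled wild type, WT below (2 arrays). The Ezh2 protein is the histone methyltransferase within the Polycomb complex PRC2 and lays down the repressive H3K27 mark. The labels of the Ezh2 KO samples conflict: besides the Ezh2 KO genotype, a protocol entry gives the marrow cells of these recipients as Ink4a-/-Arf-/-, and that of the WT samples as wild type. The labels do not state whether replicate arrays come from different recipients, so the p-values here reflect array-to-array spread alone, and this spread may be technical. With 2 arrays a group, the number of arrays limits every value.

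Integrins are pairs of an alpha and a beta chain that bind matrix proteins or receptors on other cells, and they bind firmly only after talin and kindlin attach to the beta tail. Selectins are lectins that catch flowing leukocytes on the vessel wall through sugars on carriers such as PSGL-1, the product of Selplg. Receptors of the immunoglobulin family, among them VCAM-1 and the ICAMs, are the partners to which leukocyte integrins bind. In marrow these molecules hold blood progenitors in their niche and serve their exit into blood.

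Ezh2 itself had 4989 and 4991 intensity units on the Ezh2 KO arrays, against 5216 and 5315 on the WT arrays (log2 change -0.08, SE 0.06, limma adjusted p = 0.532). Whether its probes lie inside the deleted stretch is unknown here, so these values are no check of the labels. The 7 markers fixed for the leukemic myeloid cell, Ptprc, Mpo, Elane, Prtn3, Ctsg, Hoxa9 and Meis1, were all above the filter, and their summed intensity was 126841 to 141455 on the Ezh2 KO arrays and 133863 to 134676 on the WT arrays. Of these 7, Ctsg was lower (log2 change -0.25, limma adjusted p = 0.0362), where 4.93% of all genes were lower at an adjusted p under 0.05. Ctsg did not pass without the filter on low values, or when WT replicate 1, WT replicate 2 or Ezh2 KO replicate 2 was left out. Among the 33 tested adhesion probe sets with a mean intensity of at least 100, the median absolute log2 difference was 0.13 between the Ezh2 KO arrays, 0.11 between the WT arrays and 0.30 to 0.48 between arrays of different groups.

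The comparison asks which adhesion transcripts differ in the Ezh2 KO leukemic cells. Vcam1, Icam2, Selp and Selplg fell, and Itgb5, Itgav, Itgam, Itgb2, Itga1 and Cd44 rose, at a limma p adjusted over all 25580 probe sets under 0.05, which is what "called" means below. Thus 10 of 65 adhesion probe sets (15.4%) were called higher, where 4.08% of all probe sets tested were, and 6 of 65 (9.23%) were called lower, against 3.91% of all. Taking the brightest probe set for each gene, 6 of 33 genes (18.2%) were higher and 4 (12.1%) lower, beside 4.67% and 4.93% of all genes. Among the called genes, every integrin chain was higher, and every selectin, selectin ligand or immunoglobulin family receptor was lower. The uncalled probe sets did not all follow. Of the 12 tested in the immunoglobulin family 5 had positive changes, and all 5 belonged to the dim gene Alcam. Its probe sets with changes of 1.06 and 1.34 passed the filter only through the Ezh2 KO arrays, which favours a positive sign. Of the 22 of the beta1 integrins and their partners 12 had negative changes. The median log2 change of the 65 probe sets was 0.10, where that of all probe sets was 0.03. It was 0.01 with quantile normalization, 0.05 with median centring, 0.06 without WT replicate 1, 0.05 without WT replicate 2 and 0.18 without Ezh2 KO replicate 2. The median absolute change was 0.35, where that of all was 0.20. With each array centred on its median, the split over all probe sets was 830 higher and 1380 lower, against 1043 higher and 999 lower without. With 1 prior variance for all probe sets in place of a trend with intensity, limma called 0 of the 65 and 0 of all probe sets. In that fit 25 of the 65 had an unadjusted limma p under 0.05, beside 4206 of all 25580. Without the filter on low values, the calls of Itgb2, Selp, Selplg and both Cd44 probe sets were lost (adjusted p = 0.0578 to 0.101). The plot of every tested probe set sets out each change with its interval.

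**Figure D1:**
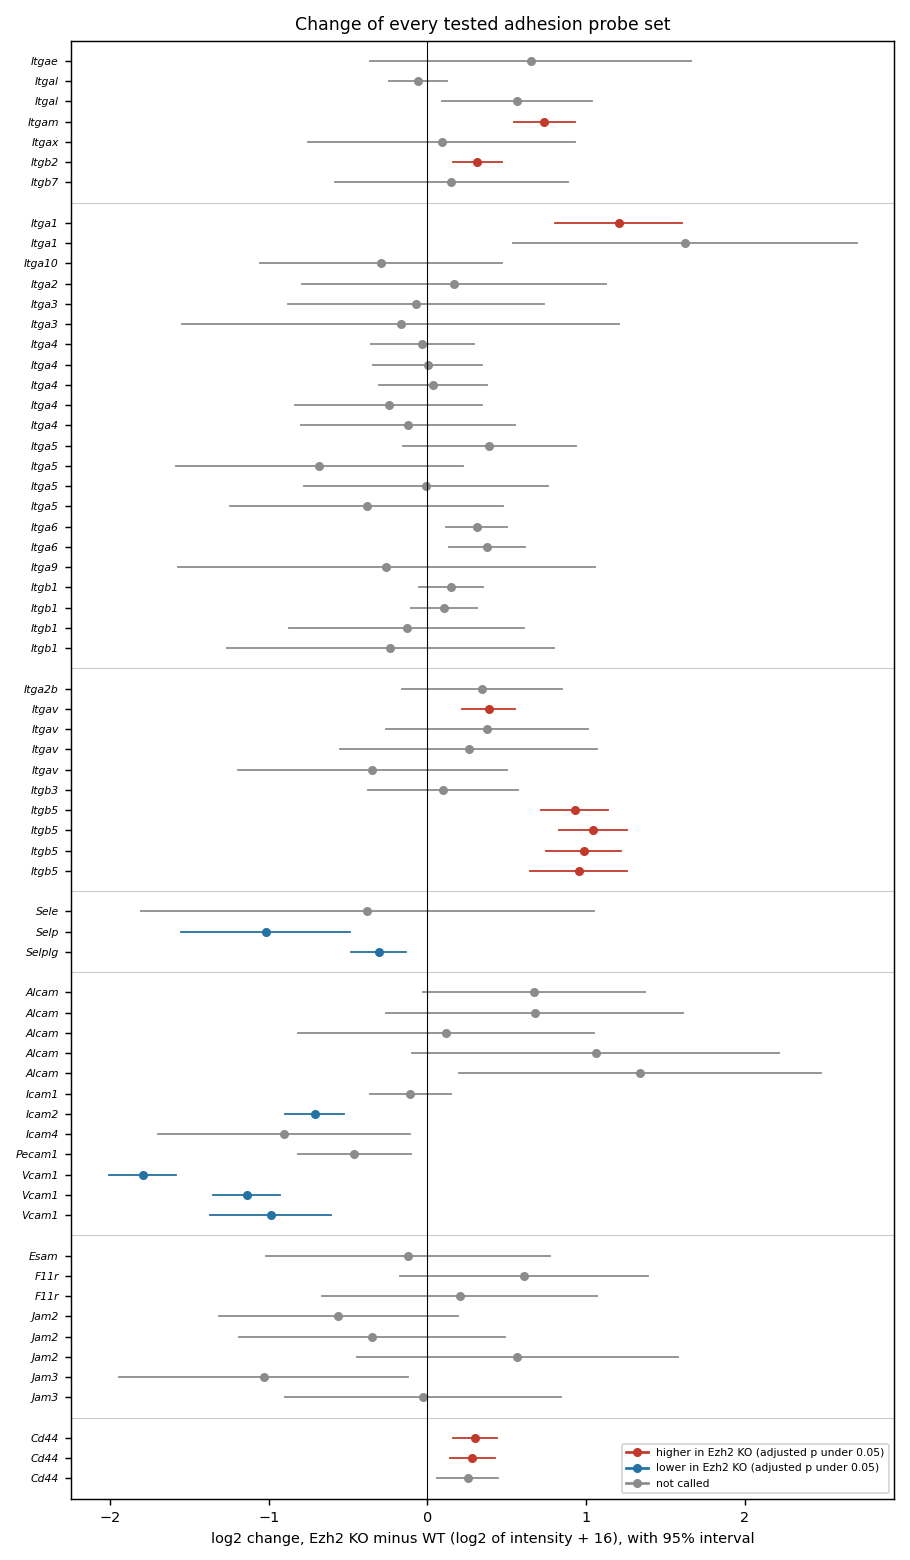
Log2 change (Ezh2 KO minus WT, horizontal axis) of the 65 tested adhesion probe sets, a row each, with its 95% interval from the limma fit; lines part the role groups, and repeated names are probe sets of 1 gene. The 10 probe sets called higher belong to Itgam, Itgb2, Itga1, Itgav, Itgb5 and Cd44, and the 6 called lower to Selp, Selplg, Icam2 and Vcam1.

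Promoter sequences from RefSeq (GRCm38.p6) were matched for 25 of the 39 genes. They are shown because PRC2 is known to gather at promoters rich in CG dinucleotides, and the 4 printed are those with the largest absolute changes among the 6 called genes that had an entry, chosen after their values were seen. Each is the 250 bases upstream of the annotated start, 5′ to 3′ on the strand of the gene, with CG dinucleotides in capitals.
Itgb5, chr16:33829415-33829664, plus strand: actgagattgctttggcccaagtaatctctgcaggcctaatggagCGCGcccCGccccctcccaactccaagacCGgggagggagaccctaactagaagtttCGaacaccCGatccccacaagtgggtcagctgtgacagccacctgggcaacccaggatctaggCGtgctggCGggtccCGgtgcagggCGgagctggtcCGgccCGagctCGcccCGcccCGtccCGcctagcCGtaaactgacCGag
Itga1, chr13:115101965-115102214, minus strand: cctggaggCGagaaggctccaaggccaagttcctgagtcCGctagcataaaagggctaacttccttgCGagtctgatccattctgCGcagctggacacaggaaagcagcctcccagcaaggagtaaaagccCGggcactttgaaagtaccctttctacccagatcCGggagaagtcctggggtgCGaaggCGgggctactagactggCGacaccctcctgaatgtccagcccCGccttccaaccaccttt
Itgam, chr7:128062390-128062639, plus strand: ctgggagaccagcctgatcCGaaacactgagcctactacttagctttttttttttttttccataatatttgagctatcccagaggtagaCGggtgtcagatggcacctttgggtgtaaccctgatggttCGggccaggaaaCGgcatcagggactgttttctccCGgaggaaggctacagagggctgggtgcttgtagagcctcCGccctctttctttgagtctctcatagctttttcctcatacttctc
Selp, chr1:164115014-164115263, plus strand: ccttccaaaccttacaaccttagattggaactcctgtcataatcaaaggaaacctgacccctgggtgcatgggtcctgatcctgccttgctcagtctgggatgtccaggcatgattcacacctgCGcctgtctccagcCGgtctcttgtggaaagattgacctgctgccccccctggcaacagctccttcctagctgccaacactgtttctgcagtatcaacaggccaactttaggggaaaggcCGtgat

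The promoter of Itgb5 held 18 CG dinucleotides, that of Itga1 10, that of Itgam 6 and that of Selp 3, where the median of all 32851 promoters of the same length was 6, with quartiles of 2 and 16. Among the other called genes with an entry, Itgav had 18 and Cd44 5. Genes that were not called covered the same range, with 1 for Sele, 2 for Itga2b and 21 for Itgb1. The letters GAGGAA, the core of many binding sites of the myeloid factor PU.1, were searched on both strands, and 23.3% of all promoters held them. They stood in the Itgam promoter on the plus strand, starting 84 bases upstream of the start, and on the minus strand, 15 bases upstream, and in 0 of the other 3 printed promoters. In all, 11 of the 27 promoters of the adhesion genes held them, among them those of the called Cd44 and Itgav and the uncalled Itga2b, with 2 matches each. A match of letters is a description and shows no binding.

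The largest fall among the adhesion probe sets called was that of Vcam1, the receptor for the integrin pair of Itga4 and Itgb1, known from vascular endothelium and from macrophages of the marrow. Its brightest probe set had 1440 and 1578 intensity units on the Ezh2 KO arrays, against 4817 and 5769 on the WT arrays. Both Ezh2 KO arrays lay far below both WT arrays, a 3.47-fold fall on the scale of intensity plus 16 used for every fold here (log2 change -1.80, SE 0.09, limma adjusted p = 9.24e-06). A further probe set had 503 and 489 in Ezh2 KO cells, against 1113 and 1109 in WT cells (log2 change -1.14, limma adjusted p = 0.000131). The dimmest of its probe sets had 156 and 197 in Ezh2 KO cells, against 338 and 390 in WT cells (log2 change -0.99, limma adjusted p = 0.0076). All 3 Vcam1 probe sets were thus called lower, by sizes from 1.98-fold to 3.47-fold, and whether these sizes differ was not tested. The call of the dimmest was lost without WT replicate 2 (log2 change -0.89, adjusted p = 0.0512).

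Icam2 encodes a ligand of the integrin pairs that contain Itgb2. It had 1237 and 1354 intensity units in Ezh2 KO cells, against 2206 and 2053 in WT cells. The groups did not overlap, and the fall was 1.64-fold (log2 change -0.71, SE 0.08, limma adjusted p = 0.00105). Icam1, the main ligand of the same integrins on inflamed vessels and antigen-presenting cells, had 453 and 473 in Ezh2 KO cells, against 514 and 487 in WT cells. Its groups did not overlap either, but it was not called (log2 change -0.11, 95% interval -0.36 to 0.15, limma adjusted p = 0.656). Icam4, an adhesion molecule of red cell precursors, had 24.2 and 45.1 in Ezh2 KO cells, against 76.1 and 77.5 in WT cells, and at this low intensity was not called either (limma adjusted p = 0.168). Icam1, Icam4 and Icam5 lie next to each other on the mouse chromosome in the RefSeq annotation of GRCm38.p6.

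Pecam1, a receptor by which leukocytes pass between endothelial cells, had 240 and 317 intensity units in Ezh2 KO cells, against 390 and 381 in WT cells. Both Ezh2 KO arrays were lower, but the change did not pass (log2 change -0.46, 95% interval -0.82 to -0.10, limma adjusted p = 0.117). Alcam, which binds CD6 and itself, was the immunoglobulin family gene with positive changes throughout: its 5 tested probe sets had log2 changes from 0.12 to 1.34, of which 0 were called (lowest limma adjusted p = 0.155). Their values were dim, with 87.0 and 85.5 on the Ezh2 KO arrays and 59.5 and 38.4 on the WT arrays for the brightest. The probe set with the change of 1.34 had 41.8 and 37.6 in Ezh2 KO cells, against 2.24 and 10.5 in WT cells. The one with 1.06 had 26.7 and 55.3 in Ezh2 KO cells, against 5.50 and 16.5 in WT cells. These WT values were below the filter intensity, so both probe sets passed the filter only through the Ezh2 KO arrays.

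Markers of cell types that also carry these receptors were read beside the falls. Of 9 macrophage markers 3 were above the filter, with 0 called (0 at an unadjusted limma p under 0.05). Adgre1, which encodes F4/80, had 1332 and 1576 intensity units in Ezh2 KO cells, against 1567 and 1621 in WT cells (log2 change -0.14). The dim Mrc1 and C1qb had positive changes (0.66 and 0.55), and C1qa, C1qc, Cd163, Cd5l, Siglec1 and Vsig4 were below the filter in the mean of the arrays. The summed macrophage level, most of it Adgre1, was 1483 to 1700 in Ezh2 KO cells and 1704 to 1705 in WT cells. Of 8 endothelial markers 5 were above the filter, with 0 called by limma (2 at an unadjusted p under 0.05). The brightest, Flt1 and Eng, had log2 changes of -0.42 and 0.51, and Emcn, Tek and Tie1 were below the filter. The sum of the 8 was 539 to 618 in Ezh2 KO cells and 516 to 664 in WT cells. Of all 13928 genes tested, 9.61% were called and 3406 had an unadjusted limma p under 0.05. A count of 0 among 3 or 5 genes is near that background. In RNA of many cells, fewer cells of a type and less RNA per cell cannot be told apart. The part of these cell types in the falls of Vcam1 and Icam2 was not tested.

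The selectin genes are known from endothelium, with Selp also in platelets and their precursors. The single tested probe set of Selp had 71.2 and 68.6 intensity units in Ezh2 KO cells, against 176 and 142 in WT cells. Both Ezh2 KO arrays were lower, a fall of 2.03-fold (log2 change -1.02, SE 0.24, limma adjusted p = 0.0303). The call was lost without WT replicate 1 (log2 change -0.88, adjusted p = 0.160) and without WT replicate 2 (-1.16, adjusted p = 0.0632), and the other Selp probe sets were below the filter. Of 6 megakaryocyte and platelet markers measured, 5 were above the filter with 0 called by limma, where 9.61% of all genes were. Of the 5, 2 had an unadjusted limma p under 0.05, beside 3406 of all 13928 genes, and 3 had positive changes. The log2 changes were 0.77 for Gp9 and 0.76 for Gp1bb, but -0.75 for Treml1 and -0.17 for Pf4. Their sum was 418 to 498 in Ezh2 KO cells and 267 to 427 in WT cells, with Ppbp below the filter, and their part in the fall of Selp was not tested. Sele, with 30.4 and 3.76 in Ezh2 KO cells, against 43.8 and 9.90 in WT cells, had a mean close to the filter and was not called (limma adjusted p = 0.798).

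Selplg, whose product PSGL-1 is the main selectin ligand of myeloid cells, had 1745 and 1823 intensity units in Ezh2 KO cells, against 2294 and 2126 in WT cells. The groups did not overlap, and the fall was 1.24-fold (log2 change -0.31, SE 0.08, limma adjusted p = 0.0419). Its adjusted p was the highest among the called adhesion probe sets, and the call was lost with quantile normalization (log2 change -0.29, adjusted p = 0.0535), without WT replicate 1 (-0.25, adjusted p = 0.196), without WT replicate 2 (-0.36, adjusted p = 0.0647) and without Ezh2 KO replicate 1 (-0.27, adjusted p = 0.125). The nearest probe sets on the other side of the threshold were those of Itga6, at adjusted p = 0.0563 and 0.0666.

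**Figure D2:**
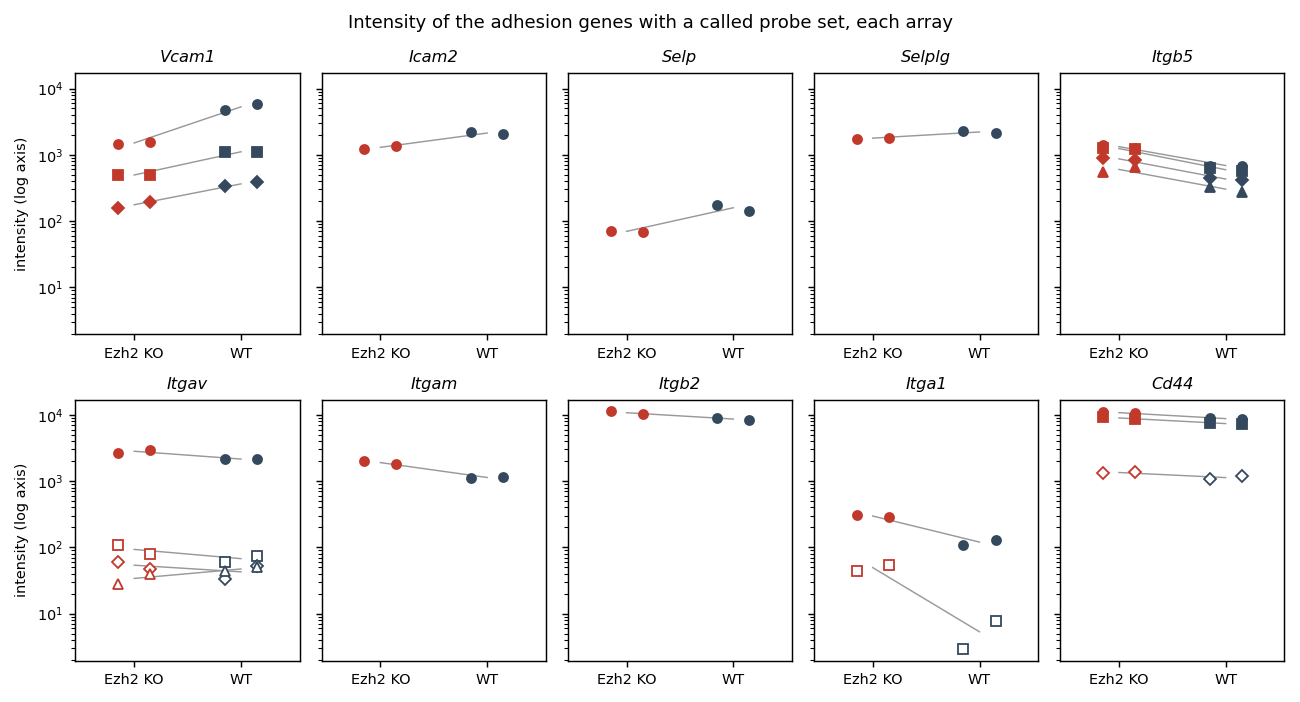
Intensity on each array (log vertical axis) of all tested probe sets of the 10 genes with a called probe set, Ezh2 KO arrays in red at the left and WT arrays in dark blue at the right of each panel. Each symbol shape is 1 probe set, filled where called and open where not, and grey lines join the group means; Vcam1 and Itgb5 were called on all of their tested probe sets, in opposite directions.

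Itgb5 rose on every probe set. It encodes the beta chain that pairs with the product of Itgav to bind vitronectin. Its brightest probe set had 1401 and 1255 intensity units in Ezh2 KO cells, against 688 and 689 in WT cells. The next had 1276 and 1211 in Ezh2 KO cells, against 623 and 568 in WT cells. All 4 probe sets were called higher with log2 changes of 0.93 to 1.04, or 1.90-fold to 2.06-fold (limma adjusted p = 0.000235 to 0.00302). By their suffix, 2 of the 4 may also bind other transcripts (log2 changes 0.93 and 0.98), and the other 2 had changes of 1.04 and 0.95.

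Its partner Itgav encodes an alpha chain that also pairs with the products of Itgb1, Itgb3, Itgb6 and Itgb8. The brightest Itgav probe set had 2695 and 2944 intensity units in Ezh2 KO cells, against 2138 and 2163 in WT cells. Both Ezh2 KO arrays were higher, a rise of 1.31-fold (log2 change 0.39, SE 0.07, limma adjusted p = 0.0133), and the call was lost without WT replicate 1 (log2 change 0.38, adjusted p = 0.0613). The other 3 tested Itgav probe sets were dimmer, were not called, and had log2 changes from -0.35 to 0.38. Of the further beta chains that pair with it, Itgb3 had 142 and 186 in Ezh2 KO cells, against 165 and 138 in WT cells (log2 change 0.10, limma adjusted p = 0.844), while Itgb6 and Itgb8 were below the filter on every probe set. Itga2b, the alpha chain of the platelet fibrinogen receptor and an early megakaryocyte gene, had 258 and 180 in Ezh2 KO cells, against 143 and 193 in WT cells, with overlapping groups (limma adjusted p = 0.426).

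Among the integrins of leukocytes, Itgam and Itgb2 rose. Together they encode CD11b/CD18, the complement receptor of granulocytes and monocytes. Itgam had 1991 and 1813 intensity units in Ezh2 KO cells, against 1099 and 1168 in WT cells, a rise of 1.67-fold without overlap (log2 change 0.74, SE 0.09, limma adjusted p = 0.00095). Itgb2, the beta chain shared by several leukocyte integrins, had 11258 and 10250 in Ezh2 KO cells, against 8932 and 8337 in WT cells. Its rise was 1.24-fold (log2 change 0.32, SE 0.07, limma adjusted p = 0.0243), and the call was lost without WT replicate 2 (log2 change 0.27, adjusted p = 0.111) and without Ezh2 KO replicate 1 (0.25, adjusted p = 0.0797).

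The alpha chains that share Itgb2 did not all pass. Itgal, the alpha chain of LFA-1, had 1488 and 1548 intensity units in Ezh2 KO cells, against 1644 and 1524 in WT cells on its brightest probe set (log2 change -0.06, 95% interval -0.24 to 0.12, limma adjusted p = 0.740). A dimmer Itgal probe set had 183 and 152 in Ezh2 KO cells, against 105 and 110 in WT cells, and did not pass (log2 change 0.57, limma adjusted p = 0.146), so the probe sets of this gene disagree. Itgax, which encodes CD11c and is the next gene to Itgam on the chromosome in GRCm38.p6, had 43.3 and 40.6 in Ezh2 KO cells, against 44.9 and 32.6 in WT cells, close to the filter. Itgb7 and Itgae, whose products pair in intestinal lymphocytes, were likewise dim and not called (log2 changes 0.15 and 0.65, limma adjusted p = 0.846 and 0.462).

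Markers of mature neutrophils, which carry CD11b/CD18, were read beside these chains. Of 7 neutrophil markers tested 3 were higher and 0 lower, where 4.67% of all genes were higher and 4.93% lower, and their summed intensity was 151840 to 168658 in Ezh2 KO cells and 121273 to 123742 in WT cells. The called ones were S100a9, which encodes a calcium-binding protein of the neutrophil cytosol (log2 change 0.50), and the granule protein genes Ngp (0.50) and Camp (0.37). S100a8, Ltf, Cxcr2 and Mmp8 did not pass (log2 changes 0.22, 0.81, 0.69 and -0.07). Their part in the rise of Itgam and Itgb2 was not tested. Among 4 tested markers of mast cells and basophils, Cpa3, a mast cell protease gene, had 1318 and 1241 intensity units in Ezh2 KO cells, against 50.6 and 64.8 in WT cells (log2 change 4.14, limma adjusted p = 1.57e-06). Hdc, which encodes the enzyme that makes histamine, had 921 and 853 in Ezh2 KO cells, against 2219 and 2376 in WT cells (log2 change -1.36, limma adjusted p = 2.80e-05). Cpa3 and Hdc thus moved in opposite directions, so 1 of the 4 was called higher and 1 lower, beside 4.67% and 4.93% of all genes. Mcpt8 and Ms4a2 were not called (log2 changes -0.24 and -0.04), and Cma1, Mcpt4 and Fcer1a were below the filter. The part of these markers in the adhesion genes was not tested.

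The beta1 integrins hold progenitors to fibronectin, collagen, laminin and VCAM-1. Itgb1, their common chain, had 1999 and 1914 intensity units in Ezh2 KO cells, against 1628 and 1904 in WT cells on its brightest probe set (log2 change 0.15, 95% interval -0.05 to 0.35, limma adjusted p = 0.384). Both Ezh2 KO arrays were above both WT arrays, WT replicate 2 by a narrow margin. Its 3 further tested probe sets had log2 changes from -0.23 to 0.11, and 0 of the 4 were called (0 at an unadjusted p under 0.05). Of all 25580 probe sets 7.98% were called and 5594 had an unadjusted limma p under 0.05, so a count of 0 among 4 is near that background. Itga4, whose product pairs with that of Itgb1 as the receptor for VCAM-1, had 2936 and 2045 in Ezh2 KO cells, against 2659 and 2358 in WT cells. Here the Ezh2 KO arrays lay on either side of both WT arrays (log2 change -0.03, 95% interval -0.35 to 0.29, limma adjusted p = 0.935). The other 4 Itga4 probe sets had log2 changes from -0.24 to 0.04, and on all 5 the groups overlapped. The share of all probe sets whose groups overlap is not given here, so this count has no background.

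Itga1, the alpha chain of a collagen receptor, was the beta1 partner that rose. Its brighter probe set had 304 and 291 intensity units in Ezh2 KO cells, against 110 and 130 in WT cells, a rise of 2.31-fold without overlap (log2 change 1.21, SE 0.18, limma adjusted p = 0.00346). The dimmer one had 44.2 and 54.8 in Ezh2 KO cells, against 2.94 and 7.70 in WT cells, both WT values being below the filter intensity, and its change of 1.62 did not pass (limma adjusted p = 0.0750). Itga2, the neighbouring gene and another collagen receptor chain, had 30.6 and 38.2 in Ezh2 KO cells, against 37.5 and 21.4 in WT cells, near the filter and overlapping.

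Itga6, the alpha chain of a laminin receptor, was just outside the threshold. Its probe sets had 2344 and 2488 intensity units in Ezh2 KO cells, against 1822 and 2076 in WT cells for the brighter, and 891 and 800 in Ezh2 KO cells, against 611 and 686 in WT cells for the dimmer. Both were above WT on both arrays, with log2 changes of 0.31 and 0.38. The 4 probe sets of Itga5, the fibronectin receptor chain, had log2 changes from -0.68 to 0.39. Of these 0 were called, beside 7.98% of all probe sets (lowest limma adjusted p = 0.377, 0 at an unadjusted p under 0.05). On their brightest probe sets Itga2, Itga3, Itga9 and Itga10 had means of 31.9 to 59.2 intensity units, and none of their tested probe sets was called.

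Cd44, the hyaluronan receptor of progenitors and leukemic cells, rose slightly. Its brightest probe set had 11102 and 10488 intensity units in Ezh2 KO cells, against 8830 and 8695 in WT cells (1.23-fold, limma adjusted p = 0.0171). The next had 9284 and 8670 in Ezh2 KO cells, against 7412 and 7331 in WT cells (1.22-fold, limma adjusted p = 0.0252). A dimmer probe set had 1333 and 1363 in Ezh2 KO cells, against 1082 and 1176 in WT cells, and was not called at a similar size (1.19-fold, limma adjusted p = 0.109). Both calls were lost without WT replicate 1 (adjusted p = 0.0611 and 0.0853), without WT replicate 2 (0.0699 and 0.0903) and without Ezh2 KO replicate 1 (0.0590 and 0.105), at log2 changes of 0.23 to 0.31.

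The junctional adhesion molecules seal contacts between endothelial or epithelial cells and are also found on leukocytes. Esam, F11r, Jam2 and Jam3 had 8 tested probe sets, the brightest with a mean of 64.3 intensity units, and 0 were called by limma (1 at an unadjusted p under 0.05). Jam2 had 54.6 and 41.9 in Ezh2 KO cells, against 99.6 and 61.0 in WT cells on its brightest probe set (log2 change -0.56, limma adjusted p = 0.382). Another of its probe sets had a change of 0.57, with 31.5 and 38.0 in Ezh2 KO cells, against 22.6 and 14.2 in WT cells. Its WT mean of 18.4 was below the filter intensity, so it passed the filter only through the Ezh2 KO arrays. Of the 15 adhesion genes with several tested probe sets 6 had changes of both signs, Jam2 among them through that probe set. The share of all genes with both signs is not given here. Of the 32 adhesion probe sets with a mean under 100 intensity units 0 were called (4 at an unadjusted p under 0.05), and 1.04% of all tested probe sets in that range were, so a count of 0 among 32 is near that background.

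**Figure D3:**
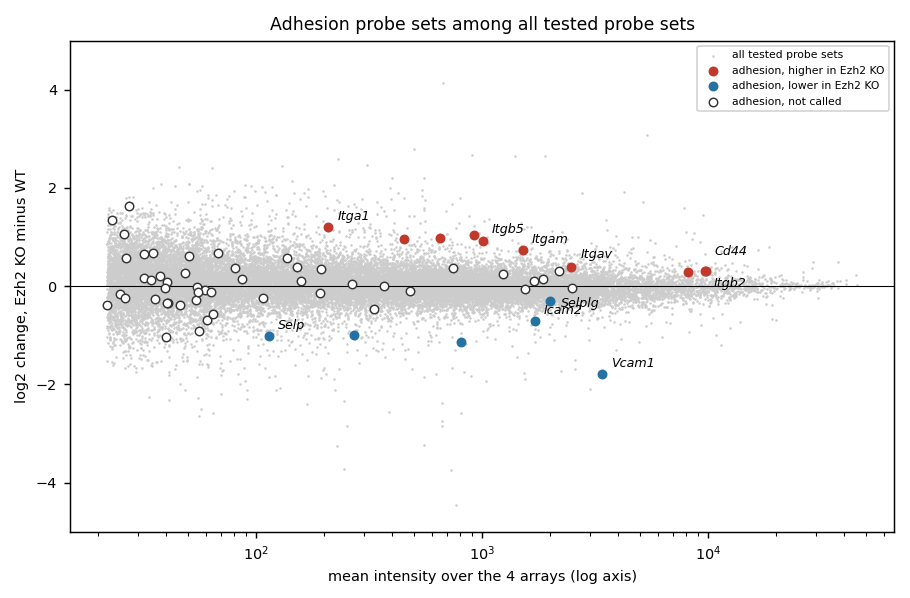
Log2 change (Ezh2 KO minus WT) against mean intensity over the 4 arrays (log axis) for all 25580 tested probe sets in grey and the 65 adhesion probe sets as larger circles, red where called higher, blue where called lower and open where not called. A name marks the brightest called probe set of each gene; all 16 called probe sets lie above a mean of 100.

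The proteins that switch integrins on, and anchor them to actin, are considered next. Of 26 tested genes of this fixed list 5 were higher and 2 lower, where 4.67% of all genes were higher and 4.93% lower. The median log2 change was 0.13, where that of all genes was 0.01. Tln2, a talin, had 670 and 688 intensity units in Ezh2 KO cells, against 409 and 438 in WT cells (1.58-fold, limma adjusted p = 0.00597). The brighter talin gene Tln1 had 2811 and 2663 in Ezh2 KO cells, against 2474 and 2364 in WT cells. It was not called (log2 change 0.18, limma adjusted p = 0.184). Neither were the kindlin genes, the bright Fermt3 (-0.02, limma adjusted p = 0.877) and the dim Fermt2 (-1.07, limma adjusted p = 0.270). Zyx, a focal adhesion protein, had 1244 and 1107 in Ezh2 KO cells, against 776 and 813 in WT cells (1.47-fold). Fyb, whose product ADAP links antigen receptors to integrins, had 132 and 138 in Ezh2 KO cells, against 298 and 293 in WT cells (2.06-fold lower, limma adjusted p = 0.00506). The other called genes were Pxn, Parvg and Rassf5, which were higher, and Cytip, which was lower. With median centring, without the filter, and without WT replicate 1, 3 were higher and 2 lower, the calls of Parvg and Rassf5 being lost in each. Both were also lost without Ezh2 KO replicate 2, and that of Rassf5 without WT replicate 2.

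The remaining fixed lists held few calls. Of 17 tested genes for selectin ligand synthesis and carriers 0 were higher and 1 lower, a share near the 4.93% of all genes called lower. It was C1galt1c1, the chaperone of the enzyme that starts core O-glycans. It had 2240 and 2511 intensity units in Ezh2 KO cells, against 3099 and 2950 in WT cells (1.27-fold lower, limma adjusted p = 0.0272). Its call was lost without WT replicate 1, WT replicate 2 or Ezh2 KO replicate 1. Of all 13928 genes tested, 9.61% were called in either direction and 3406 had an unadjusted limma p under 0.05. Of 14 tested matrix and soluble ligands 0 were called by limma (1 at an unadjusted p under 0.05). Of 7 ADAM sheddases 0 were called (0 at an unadjusted p under 0.05). The brightest of these were Emilin1 and Tgfb1 among the ligands (log2 changes -0.15 and 0.02) and Adam10 and Adam17 among the proteases that shed adhesion receptors (0.09 and -0.07).

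Of 20 other adhesion molecules 3 were higher and 0 lower, beside 4.67% and 4.93% of all genes. Without either WT array 2 were higher. Itgb2l, a mouse relative of Itgb2 that the naming rule left out, had 1337 and 1260 intensity units in Ezh2 KO cells, against 479 and 622 in WT cells (2.34-fold, log2 change 1.23, SE 0.13, limma adjusted p = 0.000466). Sirpa, the inhibitory receptor for CD47 on myeloid cells, rose 1.35-fold, and Hmmr, a hyaluronan-binding protein of the mitotic spindle, rose 1.27-fold. The call of Hmmr was lost without either WT array.

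**Figure D4:**
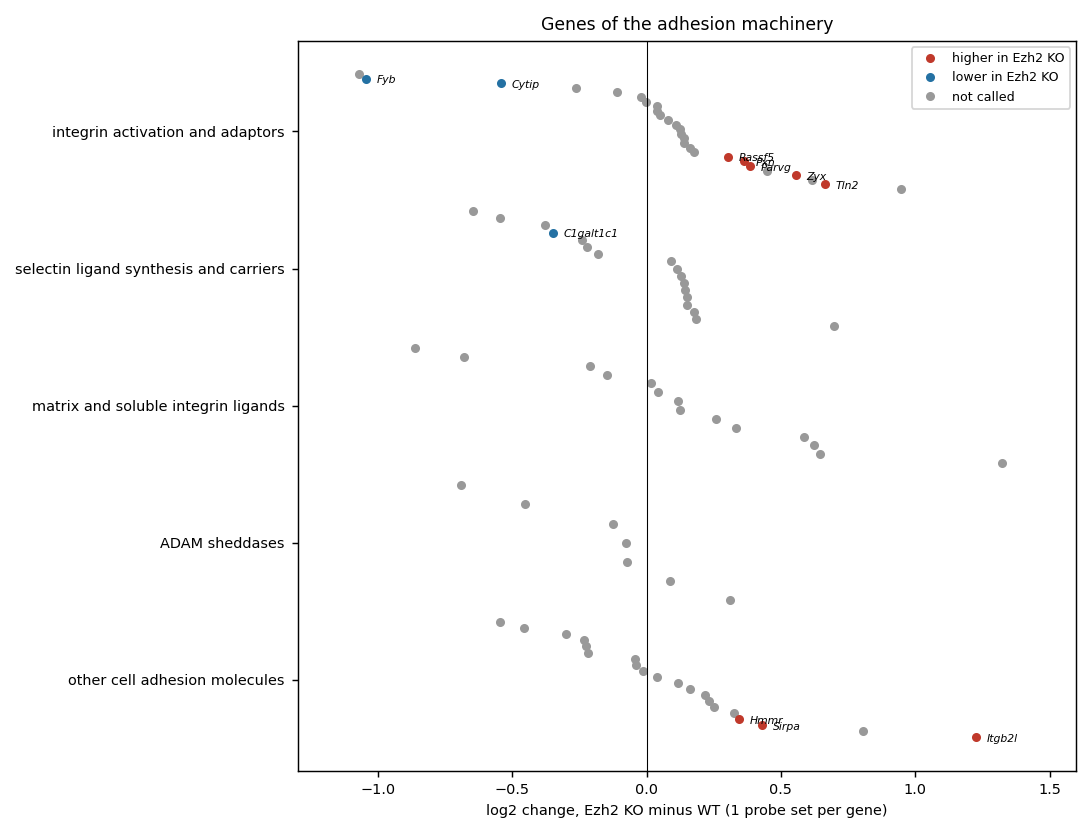
Log2 change (Ezh2 KO minus WT) of the tested genes of 5 fixed lists, 1 point a gene on its probe set of highest mean, red where called higher, blue where called lower and grey where not called. The integrin activation list holds 5 red and 2 blue points, the other adhesion list 3 red points and the selectin ligand list 1 blue point.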

How the data were processed

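RNA of 2 Ezh2 KO and 2 WT samples was hybridised to Affymetrix Mouse Genome 430 2.0 arrays, a sample each. The deposited values are intensities, for which the submitters' processing notes name the authors' use of Affymetrix Expression Console. Its version and summary algorithm are not given in the sources used here. In every column of deposited intensity, the 2% trimmed mean was 500, so arrays were compared as deposited. Array medians were 67.7 and 65.2 for Ezh2 KO and 64.9 and 57.4 for WT. Of 45101 probe sets, 34945 had 1 gene symbol in GEO's platform annotation, 932 had several and 9160 were unnamed; 34741 of the named matched RefSeq.

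Probe sets whose mean over the 4 arrays passed the 30th percentile of non-control probe sets (21.93) were kept. From the deposited intensities, log2(intensity + 16) was fitted with limma 3.58.1 in R 4.3.3 (lmFit, then eBayes with an intensity trend; 2 residual degrees of freedom), and p-values were adjusted over 25580 probe sets by Benjamini-Hochberg. The fit was tested on simulated data. Figures were drawn with matplotlib 3.10.9.

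The members and gene lists were chosen with earlier results of these data known. Named are all genes with a called probe set, the brightest uncalled gene of each role group, and up to 3 called or the 2 brightest genes of each list. Further members and list genes named beside them, such as Icam4, Pecam1, Itga6, Tln1, Fermt3 and Fermt2, were chosen after their values were seen. In the lists, each gene stands for its brightest probe set. Alternatives were other normalizations, filters, pseudocounts and prior variances, 1 probe set per gene, the replicate number as a block, and leaving out each array.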

Additional observations from a re-analysis of the deposited data

How the results depend on the processing

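Of the 16 called adhesion probe sets, 9 kept their call in every alternative that tested them other than the single prior variance: the 4 of Itgb5, those of Itga1, Itgam and Icam2, and 2 of Vcam1. The brightest of each gene was tested in 13 alternatives, and 3 of Itgb5 and 1 of Vcam1 in 12, since they are left out with 1 probe set per gene. With a single prior variance, limma called 0 adhesion probe sets higher, 0 lower and 0 of all probe sets (4206 at an unadjusted p under 0.05). Without the filter, 7 adhesion probe sets were higher and 4 lower, and 1229 were called over all probe sets, where more probe sets were tested. With the replicate block, 12 adhesion probe sets were higher and 6 lower, and 3469 were called over all. Over the tested probe sets, the deviations of same-numbered arrays from their group means correlated at r = 0.039. This 1 correlation cannot exclude a batch that touches only some genes. Leaving out each array in turn gave 1112 to 2030 calls over all and 3 to 7 adhesion probe sets lower. The brightest Itga4 probe set, not called in any of these, changed sign, from -0.29 to 0.23 (0.055 without WT replicate 1). The cause was not tested. Counts of the gene lists under each alternative were added after the data were seen. With 2 arrays a group and low signal over background, changes under a mean of 100 intensity units were rarely called.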
